A study of Populus alba x Populus glandulosa with 12 samples.

Results

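PagSUPa is a C2H2-type zinc finger protein of the hybrid poplar Populus alba x Populus glandulosa, and leaves of 1 line that overexpresses it, line 7, are compared here with leaves of nontransgenic controls (CK) across all genes. The 8 libraries of this comparison were chosen by their labels and the matching column names, 4 from line 7 and 4 from the control, out of 12 libraries in the series. The remaining 4 come from leaves of a second overexpression line, line 2, and serve as the nearest group for comparison. No treatment, time, plant age or leaf position is given in the labels, and neither are the promoter that drives the transgene and whether a line is 1 transformation event. The column names of all 12 libraries end in the same suffix, which the labels do not explain. Whether it stands for a leaf position is not stated. Replicates are numbered 1 to 4 in each group, and nothing says that they came from separate plants, so every p-value measures the spread between these libraries, which may be technical.

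SUPERMAN-type proteins carry a single C2H2 zinc finger and an EAR-type repressor motif, and in Arabidopsis they are known for limiting cell division, at the boundary of floral whorls in the case of SUPERMAN itself. Phragmoplast orienting kinesins (POK), which the title of the study names as target, mark the site of the division plane at the cell cortex and guide the phragmoplast, the microtubule array that builds the new wall between daughter cells. In a young leaf, cells first divide, then expand while the veins, stomata and photosynthetic apparatus mature, and the YABBY, KANADI, TCP and GRF transcription factors named below act in these processes in Arabidopsis.

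Expression is given in TPM, the share of a transcript in a library scaled to a fixed total, as deposited by the authors. All fold changes are differences of mean log2(TPM + 1), line 7 minus control, with the standard error (SE) of a limma model fitted to 24926 genes, and a gene is said to be called, or to have risen or fallen, where its p-value adjusted over all of these genes was under 0.05. This scale understates the change of genes of low TPM. Gene names are those of the Arabidopsis gene that the table pairs with each poplar gene, and roles are those known in Arabidopsis unless stated otherwise. Where gene copies are nearly identical, Salmon can split their reads either way and each copy's value is uncertain, and sequencing depth cannot be read from TPM.

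Between 23117 and 24284 genes reached 1 TPM in a line 7 library and between 23228 and 24607 in a control library. Transcripts typical of leaves were among the 10 most abundant of line 7, such as the Rubisco small subunit (Potri.017G114600, 10397–15659 TPM) and a chlorophyll-binding protein of the LHCB1.4 type (Potri.005G239300, 9772–10676 TPM). Ranges are given as the lowest and highest of the 4 libraries of a group. Control replicates 1 and 2 stood apart from control replicates 3 and 4 in library weight, median ratio factor and kinesin level. Correlations of log2(TPM + 1) across tested genes set only replicate 1 apart, at 0.936 and 0.934 with replicates 3 and 4. Replicate 2 had 0.966 and 0.972 with replicates 3 and 4 and 0.97 with replicate 1. The library weights of replicates 1 and 2, at 0.318 and 0.514, were the lowest of the controls, and their median ratio factors of 1.23 and 1.21 the highest. Their kinesin transcripts summed to 541 and 444 TPM, against 282 and 281 TPM in replicates 3 and 4. Results are therefore given with all controls and, where that moves them, in a reduced fit without control replicates 1 and 2. That fit has fewer libraries, so a call can be lost in it without a smaller change. Median log2 fold changes of several gene lists also became smaller in it. They moved from -0.72 to -0.25 for phragmoplast genes, -0.63 to -0.17 for S phase genes and -0.73 to -0.37 for polarity genes. The medians of growth regulators (-0.62 to -0.3), mitotic genes (-0.64 to -0.29) and stomatal genes (-0.59 to -0.3) did likewise. The photosystem median hardly moved (-0.57 and -0.6), and the gibberellin median grew (-0.35 to -0.72). In bulk leaf RNA, fewer cells of a type and less RNA per cell cannot be told apart.

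Of the 24926 tested genes, 10910 (43.8%) were called in line 7 against control, 4716 of them higher (18.9%) and 6194 lower (24.8%). A change of at least 1 on the log2 scale was also reached by 2152 of the genes called higher (8.63% of those tested) and by 2193 of those called lower (8.8%). All 4 line 7 libraries lay above all 4 controls for 4967 genes (19.9%) and below all 4 for 5559 genes (22.3%). These shares are the background against which each group of genes below is to be read. The reduced fit called 3058 genes higher (12.3%) and 1955 lower (7.84%), of which 4687 had been called in the same direction with all controls. Counts given from the reduced fit are to be read against its own shares, 12.3% and 7.84%. The median log2 fold change of all tested genes was -0.0991, and it moved to 0.00801 when libraries were scaled by median ratios, with 6126 genes higher and 5441 lower.

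**Figure D1:**
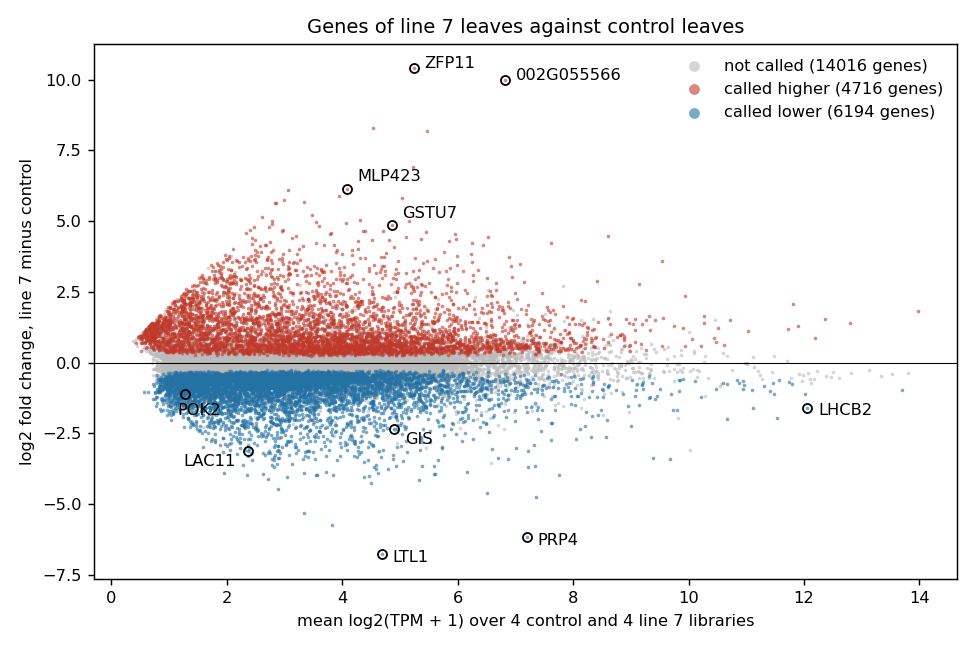
Log2 fold change of each tested gene (line 7 minus control) against its mean log2(TPM + 1) over the 4 control and 4 line 7 libraries, with the 4716 genes called higher in red, the 6194 called lower in blue and the rest in grey. The ZFP11 homolog (10.40) sits at the top of the plot, and the LTL1 homolog (-6.78) at the bottom, while the POK2 homolog (-1.09) lies among genes of low level.

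The gene that rose most among annotated genes was a homolog of ZFP11 (Potri.002G041700), a SUPERMAN-type zinc finger protein. Its transcript was listed at 0, 0, 0 and 0.112 TPM in control replicates 1 to 4 and at 1551, 1210, 1502 and 1315 TPM in line 7 replicates 1 to 4, so that every line 7 library stood far above every control. The log2 fold change was 10.40 (SE 0.13, adjusted p = 6.75e-13; exact two-sided permutation p = 0.0286, the smallest that 4 against 4 libraries allow). No gene of the table is named SUPERMAN or PagSUPa, so this gene is not shown to be the transgene, and reads of a transgene and of a native copy cannot be told apart. Line 2 held 1247–1714 TPM of the same transcript, which overlaps line 7.

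Of 9 poplar genes paired with SUPERMAN-type or related C2H2 proteins, only the ZFP11 homolog and a homolog of GIS, which promotes trichome formation, reached the expression filter. The GIS homolog (Potri.006G195100) measured 54.2, 62.5, 78 and 74.8 TPM in the controls and 20.7, 25.1, 6.93 and 5.84 TPM in line 7, with no overlap. It fell by 2.35 on the log2 scale (SE 0.62, adjusted p = 0.0114), and in the reduced fit its change of -2.55 had an adjusted p of 0.0609. A homolog of JAG, which promotes lamina growth, differed by -0.34 (Potri.010G124200; exact permutation p = 0.0286) at no more than 0.565 TPM in any library. The remaining 6 genes, homologs of KNU, RBE, ZFP10 and a second JAG, stayed at or under 0.348 TPM in all 8 libraries (exact permutation p between 0.257 and 1.0).

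The POK2 homolog (Potri.004G145800) measured 4.84, 3.32, 1.48 and 1.47 TPM in control replicates 1 to 4 and 0.617, 0.981, 0.461 and 0.598 TPM in line 7 replicates 1 to 4. Both high controls were replicates 1 and 2, and the line 7 libraries all lay under the lowest control. Its log2 fold change was -1.09 (SE 0.26, adjusted p = 0.00737; exact permutation p = 0.0286). In the reduced fit the change was -0.58 (adjusted p = 0.0446). The POK1 homolog (Potri.010G153000) was under the expression filter, with 1.58, 0.882, 0.238 and 0.291 TPM in the controls and 0.209, 0.283, 0.056 and 0.049 TPM in line 7. One line 7 library overlapped the controls, and the log2 difference of -0.54 did not pass (exact permutation p = 0.0571).

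**Figure D2:**
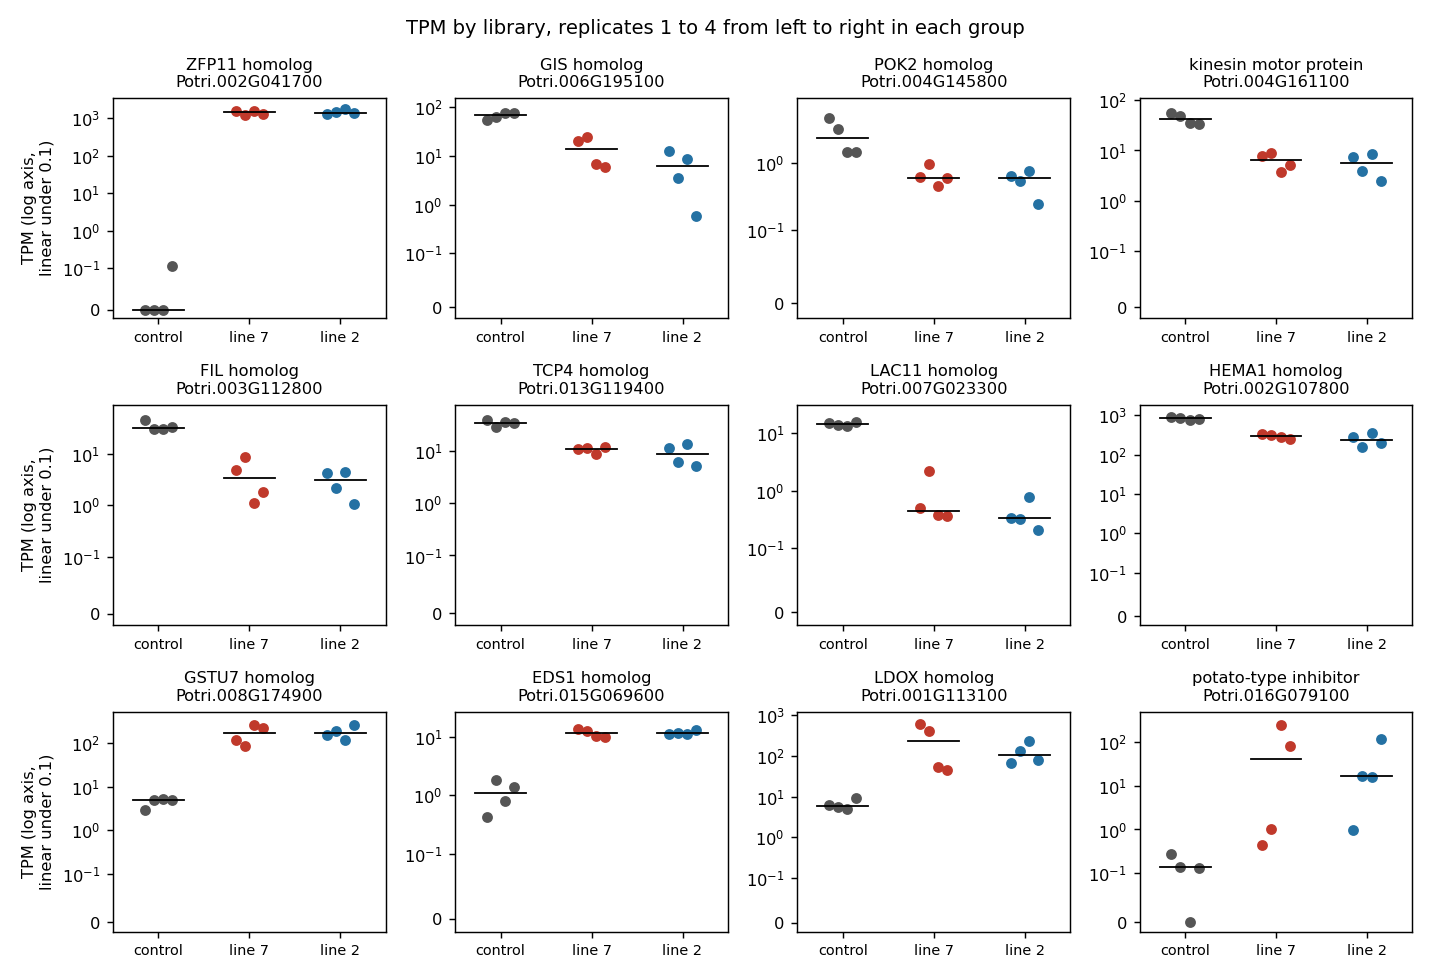
TPM of 12 genes in every library of the control (grey), line 7 (red) and line 2 (blue), replicates 1 to 4 from left to right, on a log axis that is linear under 0.1 TPM, with the median of each group as a black bar. The ZFP11 homolog lies at 1210–1551 TPM in line 7 against at most 0.112 TPM in controls, and the LDOX homolog and the potato-type inhibitor show line 7 libraries that differ strongly among themselves.

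The 12 largest rises among annotated genes with a mean of at least 5 TPM, counting the ZFP11 homolog, included genes of defence, wall and oxidation families. A homolog of MLP423 (Potri.008G212500), a major latex protein-like protein, measured 0.567–1.71 TPM in controls and 52.5–355 TPM in line 7, a log2 fold change of 6.15 (SE 0.57). A pair of homologs of the cytochrome P450 CYP712A1 (Potri.006G057900 and Potri.006G058000) were listed at 0 in all controls but replicate 3 (0.034 TPM) and reached 33.4–146 and 26.2–112 TPM in line 7. A berberine bridge enzyme homolog (Potri.001G463300), of the family of FAD-linked oxidases, rose from 0.148–2.16 to 35.9–368 TPM. The extensin homolog Potri.005G190100, a structural wall glycoprotein, rose from 0.562–7.37 to 84–680.4 TPM. These 5 genes share a pattern within line 7, with replicates 3 and 4 at higher levels than replicates 1 and 2.

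Among the other large rises, a cupredoxin, or blue copper protein (Potri.005G079400), was the most even, with 66.3, 45.2, 82.9 and 104 TPM in line 7 against 0.11–1.14 TPM in controls (log2 fold change 5.69, SE 0.30, adjusted p = 1.23e-06). An osmotin homolog (Potri.001G107800), a thaumatin-like defence protein, rose from 1.45–13.6 to 103–293 TPM. A RING/U-box protein (Potri.012G003900) rose by 5.23, a class III peroxidase of the RCI3 type (Potri.015G003500) by 5.14, and a dirigent-like protein (Potri.001G214600) rose from 0–0.524 to 4.84–196 TPM. The homolog of PER1 (Potri.008G099900), an antioxidant peroxiredoxin known from seeds, measured 9.43, 149, 3.37 and 984 TPM in line 7 replicates 1 to 4 and was listed at 0 in all controls but replicate 3 (0.08 TPM). Its values spanned more than any other gene of this group, and its SE was 1.75. Its change was 5.64 with all controls and 5.62 in the reduced fit, where it did not pass (adjusted p = 0.124).

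The 12 largest falls included surface, wall and growth genes. A homolog of LTL1 (Potri.019G024400), a GDSL-type lipase, was at 199.9–394 TPM in controls and fell to 0–12.7 TPM in line 7, a log2 fold change of -6.78 (SE 0.70, adjusted p = 6.15e-05). Both homologs of PRP4, a proline-rich wall protein, fell from high levels: Potri.004G168600 from 1025–1420 to 1.01–74.2 TPM and Potri.009G129900 from 638–1140 to 1.54–129 TPM, the latter without a call in the reduced fit (adjusted p = 0.0794). A SAUR gene (Potri.004G164400), of an auxin-induced family linked to cell elongation, fell from 35.6–120.2 TPM to 0.05–1.66 TPM. Expansin EXPA15 (Potri.013G060800), which loosens walls, and beta-xylosidase BXL1 (Potri.008G108100), which trims wall polysaccharides, fell by 4.04 and 4.47 on the log2 scale.

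The homolog of CER1 (Potri.014G180300), which makes the alkanes of leaf wax, measured 290.4, 189.5, 114 and 127 TPM in controls and 21.7, 24.9, 1.85 and 3.97 TPM in line 7 (log2 fold change -4.15). An acyltransferase of the HXXXD type (Potri.010G208100) was at 0.063, 12.5, 0 and 0 TPM in line 7, with replicate 2 alone above 0.1 TPM, against 63.1–148 TPM in controls. An Ole e 1 family protein (Potri.009G019300) fell by 4.60 with all controls and did not pass in the reduced fit (adjusted p = 0.0837). The transporter PGP9 (Potri.001G354900), a lipid transfer protein (Potri.002G050400) and a cupredoxin (Potri.001G080700) completed the group, at log2 fold changes of -4.11, -4.26 and -4.04. The last 2 stood higher in control replicates 3 and 4 than in control replicates 1 and 2, and all line 7 libraries lay below both pairs.

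With all controls, kinesins had the largest share called lower of any list with at least 3 tested members, a rank they did not keep in the reduced fit. Of 31 tested kinesins 27 were called lower (87.1%, against 24.8% of all tested genes) and 0 higher, with a median log2 fold change of -1.12. The kinesin motor protein Potri.004G161100 measured 55.4, 48.7, 34.6 and 32.9 TPM in controls and 7.75, 8.93, 3.76 and 5.16 TPM in line 7 (log2 fold change -2.59, SE 0.34, adjusted p = 0.000263). A homolog of ATK4 (Potri.005G021100), a minus-end directed kinesin, went from 4.49–8.6 to 0.557–1.71 TPM. The reduced fit called 11 kinesins lower, and the share of all tested genes called lower also dropped, from 24.8% to 7.84%. Without control replicates 1 and 2 the median kinesin change was also smaller, at -0.57 against -1.12. How far the count of 27 rests on their high kinesin levels, and how far on the number of libraries, was not tested. In the reduced fit the share of xylem genes called lower, 30 of 50, was the larger one, and without control replicate 2 alone 20 kinesins were called lower.

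Phragmoplast and cytokinesis genes were mixed, with 15 of 33 called lower and 4 higher (median -0.72). A RhoGAP homolog of the type that binds POK kinesins (Potri.009G069700) fell from 11.9–21.7 to 4.71–7.22 TPM. Conversely a homolog of SNAP33 (Potri.015G049000), a membrane fusion protein of the cell plate that also acts in secretion, rose from 9.06–10.4 to 24.8–33.6 TPM (log2 fold change 1.52). Of 26 tubulins 13 were lower and 1 higher. The TUA4 homolog Potri.009G085100 fell from 1272–1782 to 289.7–716 TPM and the TUB6 homolog Potri.001G104600 from 6.44–21.2 to 0.164–1.21 TPM. The reduced fit called 3 of the 33 phragmoplast genes and 2 of the 26 tubulins lower, against 7.84% of all tested genes in that fit. These counts are thus close to that share. The phragmoplast count was 9 without control replicate 1 or 2 or line 7 replicate 3, and the tubulin count was 6 without control replicate 1, 7 without control replicate 2 or line 7 replicate 3 and 8 without line 7 replicate 4.

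Genes for entry into S phase and DNA replication included 11 called lower and 2 higher of 34 (median -0.63; 3 and 2 in the reduced fit; lower in 7 without control replicate 1 or 2 and 17 without control replicate 3). D-type cyclins, which start the cell cycle, fell by 1.46 on the log2 scale for the CYCD1;1 homolog Potri.010G095200 and by 1.19 for the CYCD3;1 homolog Potri.002G123000. The ribonucleotide reductase homolog RNR1 (Potri.005G087300), which supplies deoxynucleotides, measured 34.4, 21.1, 6.54 and 8.44 TPM in controls and 3.29, 4.42, 1.39 and 1.46 TPM in line 7. Control replicates 1 and 2 again held the highest values, and the fold change moved from -2.17 to -1.30 in the reduced fit. Of 26 mitotic cyclin and spindle genes 9 were lower and 0 higher (3 lower in the reduced fit, 4 without control replicate 1 or 2 or line 7 replicate 3 or 4, 14 without line 7 replicate 2 and 18 without control replicate 3). The centromere protein CENP-C (Potri.003G056600) fell by 0.66.

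Core histones had 6 called lower and 2 higher of 51 and a median of -0.17, and none was called in the reduced fit (lower in 2 without control replicate 1 or line 7 replicate 4 and 3 without line 7 replicate 3). Their shares, 11.8% lower and 3.92% higher, lay under the 24.8% and 18.9% of all tested genes. A histone H2A homolog (Potri.005G216600) went from 57.2–78.2 to 39.9–51.6 TPM. Of 9 CDK inhibitor and endocycle genes 2 were higher and 3 lower (3 and 3 with median ratio scaling). Homologs of the cell cycle inhibitors KRP2 (Potri.007G042300) and KRP7 (Potri.009G103600) rose by 0.87 and 0.80, while FZR2 (Potri.003G119500), an activator of the anaphase-promoting complex, fell by 0.60. None of these 3 passed in the reduced fit (adjusted p between 0.0894 and 0.148).

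Of 33 growth regulators 19 were called lower and 1 higher (median -0.62), and of 29 polarity genes 18 were lower and 0 higher (median -0.73). TCP4 (Potri.013G119400), which ends cell proliferation in the lamina, measured 38.9, 28.6, 35.5 and 35 TPM in controls and 10.9, 11.5, 9.03 and 11.9 TPM in line 7 (log2 fold change -1.58, SE 0.25). The gap between groups was wide and the line 7 libraries were even. The growth-promoting factor GRF8 (Potri.001G082700) fell by 1.48, and the organ size inhibitor BIG BROTHER (Potri.009G062100), which marks proteins with ubiquitin, by 2.10. The members that fell therefore include promoters and inhibitors of growth.

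FIL (Potri.003G112800), a YABBY factor of the lower leaf side, measured 45.5, 30.1, 30.7 and 32.8 TPM in controls and 4.95, 8.86, 1.09 and 1.79 TPM in line 7, a log2 fold change of -3.04. KAN2 (Potri.003G096300), which also specifies the lower side, fell by 1.35, and AS1 (Potri.017G112300), which represses meristem genes in leaves, by 1.57. For FIL and AS1, line 7 replicates 3 and 4 were below replicates 1 and 2. In the reduced fit 7 growth regulators and 6 polarity genes were called lower, and leaving out any 1 of control replicate 1, control replicate 2, line 7 replicate 3 or line 7 replicate 4 left between 10 and 12 of each. None of the homologs of meristem and organ boundary genes, such as WUS, KNAT1 and CUC2, reached the expression filter, and of the floral identity homologs only an AP3 homolog did, which was not called.

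Of 18 stomatal genes 12 were called lower and 0 higher. MYB60 (Potri.019G045900), a guard cell transcription factor, measured 21.4, 22.7, 20.1 and 20.5 TPM in controls and 2.38, 3.13, 1.47 and 1.34 TPM in line 7 (log2 fold change -2.89, SE 0.31, adjusted p = 8.13e-05). FAMA (Potri.017G054500), which sets guard cell fate, fell from 6.29–9.28 to 1.91–4.67 TPM. STOMAGEN (Potri.002G249901), a peptide made in the mesophyll that promotes stomata, went from 32.1–85.5 to 0.373–13.9 TPM. It passed with all controls (adjusted p = 0.00986) and not in the reduced fit (adjusted p = 0.0962), in which 3 stomatal genes were lower. With 1 library left out, the count was 5 without control replicate 1 or line 7 replicate 4, 6 without control replicate 2 and 7 without line 7 replicate 3.

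Of 13 epidermal and trichome genes 6 were lower and 2 higher (1 and 2 in the reduced fit). TTG1 (Potri.012G006100), a WD40 protein of trichome and anthocyanin regulation, was nearly constant within groups, at 12.3, 12.3, 12.4 and 12.7 TPM in controls and 35.3, 33.6, 36.3 and 34.6 TPM in line 7 (log2 fold change 1.42). HDG11 (Potri.015G034100), a homeodomain factor of the epidermis, fell by 1.12, and TRY (Potri.002G168900), an inhibitor of trichome fate, fell by 1.56 with all controls (adjusted p = 0.0839 in the reduced fit). Summed over the 16 genes of the list, TPM was 132–266 in controls and 144–187 in line 7, so the groups overlapped, and the part of epidermal content in other results was not tested.

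Of 50 tested xylem and secondary wall genes 41 were called lower (82%) and 3 higher, with a median log2 fold change of -1.57, and 30 were lower in the reduced fit. NST1 (Potri.011G153300), a NAC switch of secondary wall formation, measured 12.1, 13.2, 10.4 and 10.1 TPM in controls and 2, 2.38, 2.5 and 1.84 TPM in line 7 (log2 fold change -1.97, SE 0.14, adjusted p = 8.68e-06). The laccase LAC11 (Potri.007G023300), which polymerises lignin, measured 14.9, 13.8, 13 and 15.5 TPM in controls and 0.503, 2.22, 0.371 and 0.368 TPM in line 7. IRX9 (Potri.016G086400), a xylan synthase subunit, fell by 2.23, and KNAT7 (Potri.001G112200), a secondary wall regulator, by 1.32. Summed over the 76 genes of the list, TPM was 649–1004 in controls and 123–278 in line 7, without overlap, and the part of vein content in other results was not tested.

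Phloem genes were called lower in 15 and higher in 2 of 39 cases (5 and 1 in the reduced fit; lower in 6 without control replicate 2 or line 7 replicate 3 or 4, 7 without control replicate 1 and 24 without line 7 replicate 2). APL (Potri.010G174100), the phloem identity factor, went from 20.3–25.3 to 11.4–16.3 TPM, while a lectin of the phloem protein 2 family (Potri.001G050100) rose from 7.17–20.9 to 45.6–50.7 TPM. Summed phloem levels overlapped between controls (814–1270 TPM) and line 7 (526–882 TPM).

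**Figure D3:**
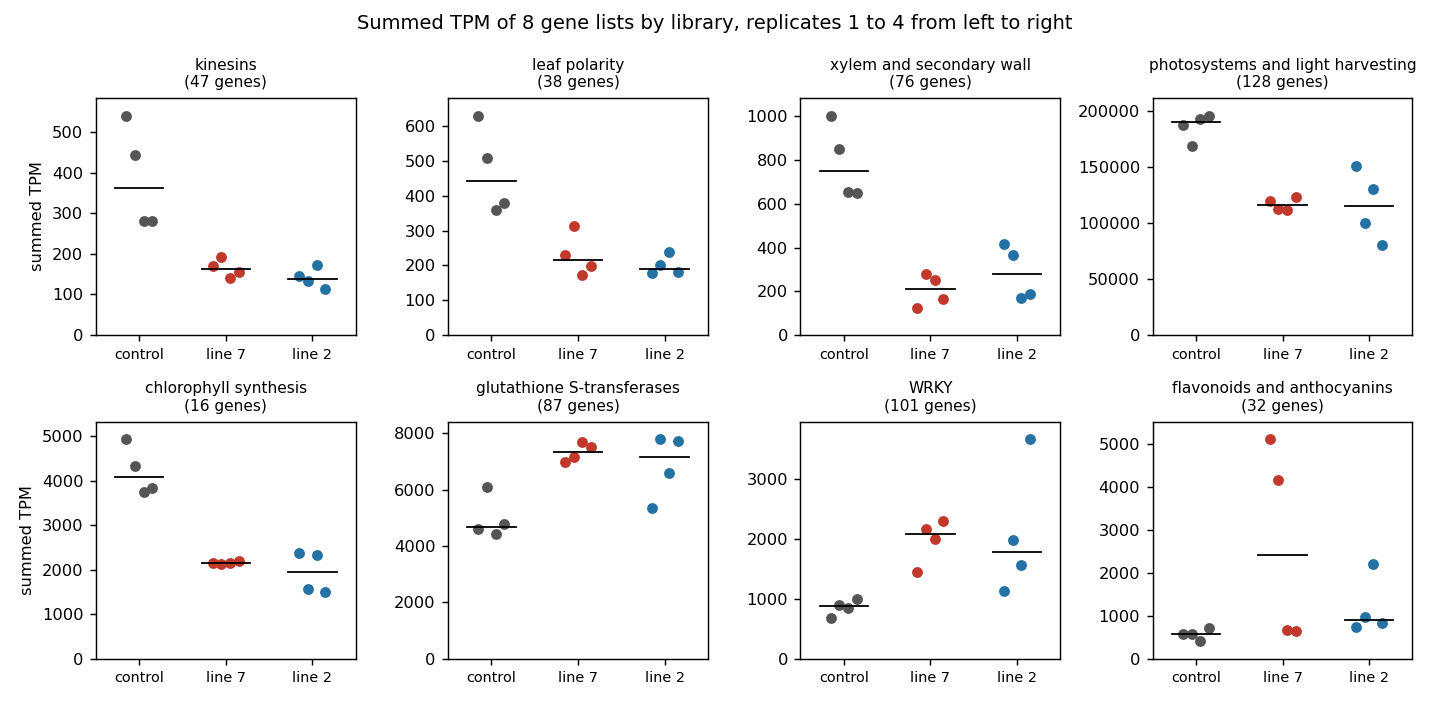
Summed TPM of 8 gene lists in each library of the control (grey), line 7 (red) and line 2 (blue), replicates 1 to 4 from left to right, with the group median as a black bar and axes from 0. Xylem genes sum to 123–278 TPM in line 7 against 649–1004 in controls, and flavonoid genes of line 7 span 656–5116 TPM.

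Of 14 genes for primary wall cellulose synthesis 10 were lower and 0 higher (median -0.98), and none was called in the reduced fit (lower in 6 without control replicate 1 or 2 or line 7 replicate 3 or 4). The CESA6 homolog Potri.005G087500 measured 78.2, 76.4, 63.7 and 46.7 TPM in controls and 18, 37.3, 4.91 and 8.81 TPM in line 7, with replicate 2 the highest and replicate 3 the lowest of line 7. The CESA3 homolog Potri.006G052600 fell by 2.09. Their adjusted p-values in the reduced fit were 0.0509 and 0.0535.

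Wall-loosening and pectin enzymes held members that moved both ways. Of 43 expansins and xyloglucan endotransglucosylases (XTH) 13 were lower and 6 higher (4 and 2 in the reduced fit). Their shares were 30.2% and 14%, against 24.8% and 18.9% of all tested genes. XTH32 (Potri.009G006600) rose from 1.15–2.42 to 35–119 TPM (log2 fold change 4.56, SE 0.36), and expansin EXPA5 (Potri.017G085300) fell from 2.27–33.5 to 0–1.71 TPM. Of 109 pectin-modifying genes 48 were lower and 9 higher, with 17 and 4 in the reduced fit and the lower count 27 without line 7 replicate 4, 28 without control replicate 2 and 31 without line 7 replicate 3. A pectin lyase-like protein (Potri.010G042100) fell by 2.09 and a protein of the invertase and pectin methylesterase inhibitor superfamily (Potri.001G108200) rose by 1.45. Of 119 extensin, arabinogalactan and proline-rich proteins 38 were lower and 11 higher (17 and 7 in the reduced fit; higher in 7 without control replicate 4 or line 7 replicate 4), among them arabinogalactan protein AGP1 (Potri.017G050200), which rose by 2.48, and an Ole e 1 family protein (Potri.016G006200), which fell by 2.11.

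The monolignol pathway, which makes lignin precursors, had 11 of 31 genes called higher and 2 lower (median 0.55; 6 and 2 in the reduced fit). Cinnamate-4-hydroxylase, an early enzyme shared with flavonoids, rose in the homologs Potri.013G157900 (95.7–111 to 252–545 TPM) and Potri.018G146100 (1.83–2.78 to 9.46–13.2 TPM). HCT (Potri.018G105400), further down the pathway, rose by 1.57. FAH1 (Potri.005G117500), which is specific to syringyl lignin, instead fell, with 15.6, 17.6, 12 and 15.9 TPM in controls and 0.324, 1.23, 1.35 and 0.383 TPM in line 7 (log2 fold change -3.20, SE 0.31).

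Of 20 flavonoid and anthocyanin genes 9 were called higher and 4 lower (median 1.46), against 3 and 0 in the reduced fit. The higher count was 5 without control replicate 1 or 2 or line 7 replicate 1 or 2, and the lower count was 0 without control replicate 1 or 2 or line 7 replicate 3 or 4 and 2 with median ratio scaling. LDOX (Potri.001G113100), which makes anthocyanidins, measured 6.24, 5.56, 4.98 and 9.4 TPM in controls and 624, 406, 54 and 45.4 TPM in line 7, so replicates 1 and 2 were far above 3 and 4, and all 4 above the controls. A second LDOX homolog (Potri.003G119100) showed the same order at 110.4, 74.1, 8.18 and 5.36 TPM, and its adjusted p was 0.0704 in the reduced fit. Chalcone isomerase (Potri.010G213000) was steadier, at 46.9–63.8 TPM in controls and 187–318 TPM in line 7. Summed over the list, line 7 held 5116, 4156, 674 and 656 TPM in replicates 1 to 4, of which replicates 3 and 4 lay within the control range of 419.9–728 TPM.

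Of 102 photosystem and light-harvesting genes 45 were called lower and 9 higher (median -0.57). In the reduced fit 17 were lower, and with median ratio scaling 29. With 1 library left out the lower count lay between 31 and 59. The median in the reduced fit was -0.6. All line 7 libraries lay below all controls for 65 of the 102 genes, against 22.3% of all tested genes. The LHCB2 homolog Potri.014G165100, an antenna protein of photosystem II, measured 6629, 7071, 7647 and 8427 TPM in controls and 1991, 2484, 2605 and 2762 TPM in line 7 (log2 fold change -1.60, SE 0.22). PSAF (Potri.003G148900), a photosystem I subunit, fell from 979–1234 to 151–368 TPM. ELIP1 (Potri.008G157800), a light stress relative of the antenna proteins, rose instead, from 0.755–2.31 to 5.36–13.2 TPM.

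Chlorophyll synthesis fell in 11 of 16 genes and rose in 1 (median -0.79; 4 and 1 in the reduced fit). HEMA1 (Potri.002G107800), which catalyses the first committed step of tetrapyrrole synthesis, measured 926, 863, 772 and 807 TPM in controls and 327, 309.6, 285 and 243 TPM in line 7. The magnesium chelatase subunit CHLH (Potri.006G051100) and the methyltransferase CHLM (Potri.012G106600), which follow in the pathway, fell by 1.18 and 1.20. Of 30 Calvin cycle and photorespiration genes 6 were lower (20%, against 24.8% of all tested genes) and 0 higher, with none in the reduced fit and 3 without control replicate 1, 2 or 3 or line 7 replicate 2, 3 or 4. Rubisco activase (Potri.010G200500) measured 8343–11282 TPM in controls and 7040–9129 TPM in line 7 and was not called, while HCEF1 (Potri.016G109000), a plastid fructose bisphosphatase, fell by 0.77 with all controls (adjusted p = 0.084 in the reduced fit).

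Of 361 tested ribosomal proteins 137 were called higher (38%, against 18.9% of all genes) and 21 lower, with a median log2 fold change of 0.36. The count of higher genes was 154 in the reduced fit, 231 with median ratio scaling, 88 without control replicate 4, 90 without control replicate 3 and 91 without line 7 replicate 2. The lower count was 3 in the reduced fit and 13 without control replicate 1. An L18e/L15 family protein (Potri.010G045800) measured 217, 238, 208 and 202 TPM in controls and 419, 436, 443 and 402 TPM in line 7. Within each group its values lay close together. Of 68 sugar and starch genes 22 were lower and 5 higher (7 and 3 in the reduced fit; lower in 11 without control replicate 2, 12 without line 7 replicate 4, 13 without control replicate 1 and 14 without line 7 replicate 3), among them sucrose phosphate synthase SPS1F (Potri.006G064300), which fell by 1.11. Of 23 clock genes 4 were lower (17.4%, against 24.8% of all tested genes), among them PRR7 (Potri.008G046200) and LHY (Potri.002G180800). No clock gene passed in the reduced fit (adjusted p = 0.0733 for PRR7 and 0.292 for LHY).

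**Figure D4:**
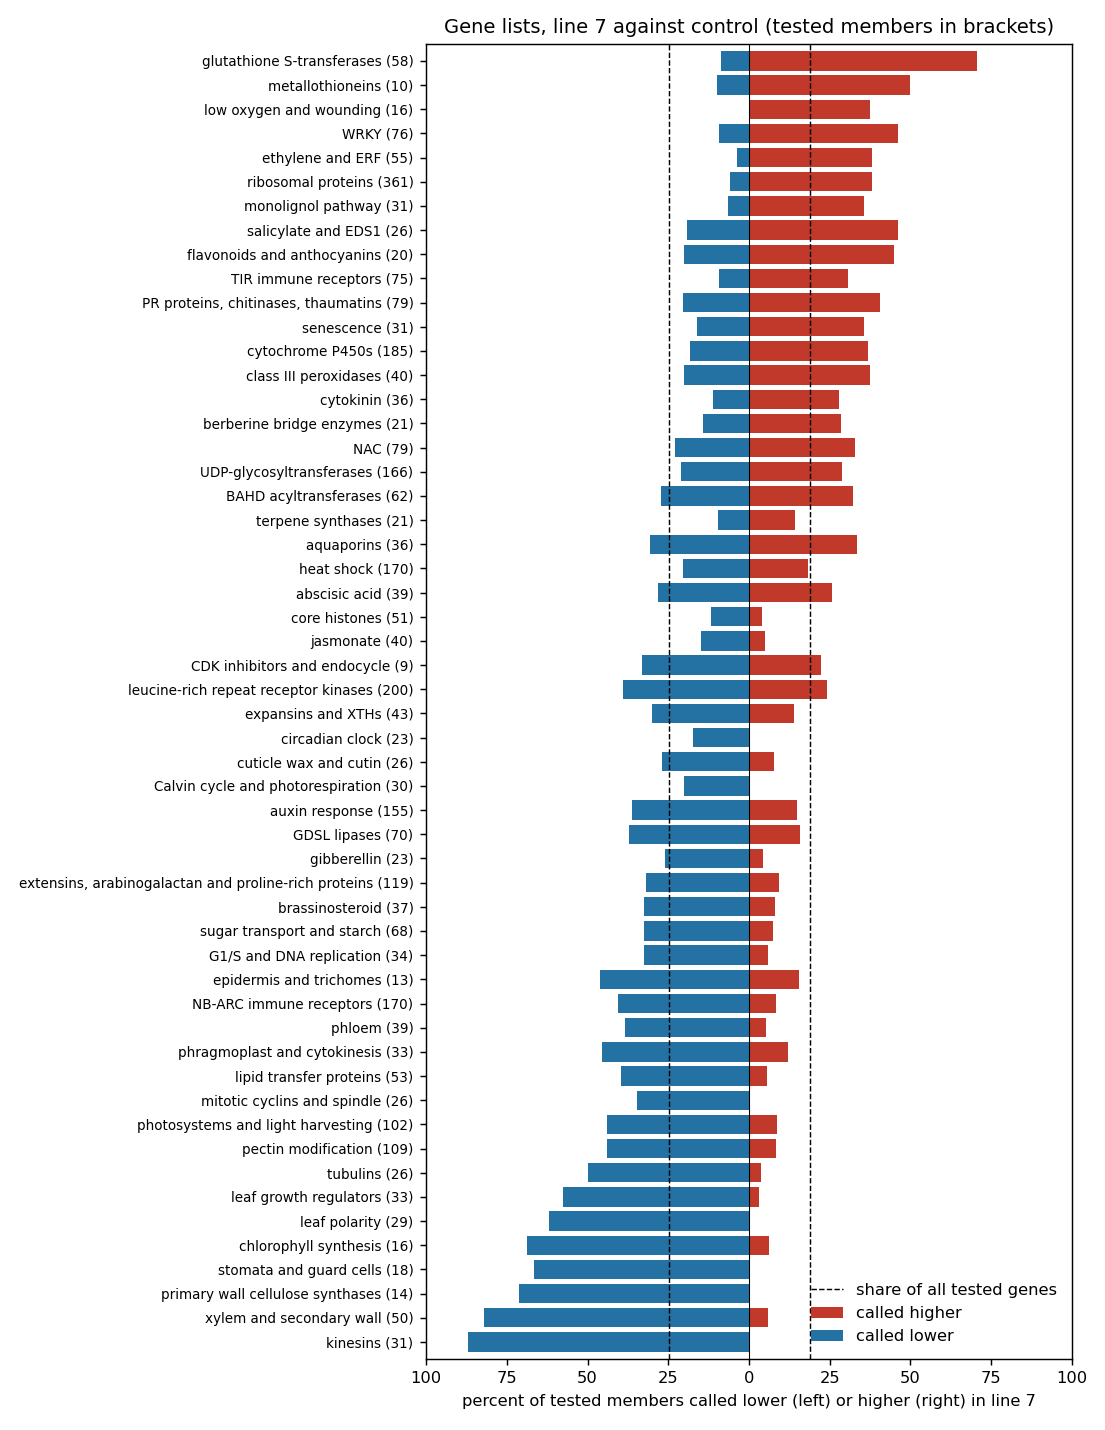
Percent of tested members called lower (blue, left) or higher (red, right) in line 7 against control for each gene list with at least 3 tested members, whose number stands in brackets, with dashed lines at the shares of all tested genes (24.8% lower and 18.9% higher). Kinesins (87.1% lower) and xylem genes (82% lower) stand at one end and glutathione S-transferases (70.7% higher) at the other.

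Auxin-responsive genes were called lower in 56 and higher in 23 of 155 cases (27 and 15 in the reduced fit). A SAUR gene (Potri.002G145300) rose from 2.08–4.28 to 34–109 TPM, opposite to the SAUR gene among the largest falls. A gene of the auxin-responsive GH3 family (Potri.014G136800) rose by 1.57. Of 23 gibberellin genes 6 were lower and 1 higher (1 and 1 in the reduced fit). The lower share was 26.1%, against 24.8% of all tested genes. The one that rose was the synthesis enzyme GA20OX2 (Potri.007G103800), from 0–1.71 to 4.81–13.7 TPM. Of 37 brassinosteroid genes 12 were lower and 3 higher (6 and 3 in the reduced fit). The synthesis enzymes BR6OX2 (Potri.017G099000) and CPD (Potri.010G189800) fell by 2.46 and 1.55, and the coreceptor BAK1 (Potri.003G023000) rose by 0.95.

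Ethylene and ERF genes were mostly higher where called, with 21 of 55 up and 2 down (median 0.58; 9 and 1 in the reduced fit, 13 without control replicate 1 or line 7 replicate 2). ERF1 (Potri.011G061700), a transcriptional activator of ethylene responses, measured 0, 0.524, 0.396 and 0.924 TPM in controls and 12.2, 10.6, 11 and 7.46 TPM in line 7. EDF3 (Potri.T036200), an AP2-type ethylene response factor, was listed at 0 in all controls but replicate 2 (0.196 TPM) and held 6.36–16.6 TPM in line 7. The ethylene-forming enzyme ACO4 (Potri.014G159000) fell from 1388–2137 to 746–880.3 TPM. Cytokinin genes were higher in 10 and lower in 4 of 36 cases (7 and 1 in the reduced fit; higher in 5 without line 7 replicate 3 and 6 without control replicate 4 or line 7 replicate 4), among them the synthesis enzyme IPT5 (Potri.008G202200, 1.43) and the response factor CRF4 (Potri.013G158500, 2.01).

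Abscisic acid genes went both ways, 10 higher and 11 lower of 39 (3 and 7 in the reduced fit, 12 and 10 with median ratio scaling). Their shares were 25.6% and 28.2%, against 18.9% and 24.8% of all tested genes. The higher count was 3 without control replicate 1, 4 without line 7 replicate 4, 5 without line 7 replicate 3 and 6 without control replicate 2. The synthesis enzyme AAO3 (Potri.004G191300) and the carotenoid-cleaving CCD4 (Potri.005G069100) fell by 1.40 and 1.26. Of 40 jasmonate genes 6 were lower and 2 higher (2 and 0 in the reduced fit). Their shares of 15% and 5% lay under those of all tested genes. LOX2 (Potri.001G015400), an early synthesis enzyme, fell from 118–133 to 28.5–46.6 TPM. Its change was -1.71 in both fits (adjusted p = 0.00582, and 0.0507 in the reduced fit). Without line 7 replicate 4, 7 jasmonate genes were called higher.

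Genes of salicylate and EDS1 signalling, the pathway of immunity to biotrophic pathogens, were higher in 12 and lower in 5 of 26 cases (median 0.61; 9 and 1 in the reduced fit). EDS1 (Potri.015G069600) measured 0.426, 1.8, 0.802 and 1.4 TPM in controls and 13.4, 12.6, 10.2 and 9.88 TPM in line 7 (log2 fold change 2.61, SE 0.19, adjusted p = 8.9e-06). PR1 (Potri.009G082900), the classical marker of that pathway, rose by 2.47 to 7.22–16.3 TPM. Over the whole list, summed TPM was 186–727 in controls and 454–1781 in line 7, which overlap.

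Of 76 WRKY factors 35 were higher and 7 lower (median 0.93; 18 and 4 in the reduced fit). WRKY57 (Potri.010G160100) rose from 0.523–1.51 to 8.76–18.2 TPM and WRKY51 (Potri.005G085200) from 0.225–0.803 to 4.26–16.8 TPM. Of 79 NAC factors 26 were higher and 18 lower (11 and 11 in the reduced fit; higher in 17 without control replicate 1). The NAC shares were 32.9% and 22.8%, against 18.9% and 24.8% of all tested genes. NAC042 (Potri.003G149700), a regulator of longevity, rose by 3.27, and NAC073 (Potri.017G016700), a secondary wall factor, fell by 1.78. Of 170 heat shock genes 31 were higher and 35 lower, shares not far from those of all genes (14 and 5 in the reduced fit, 47 and 27 with median ratio scaling; lower in 19 without control replicate 2 and 23 without line 7 replicate 4), and the heat shock factor HSFB1 (Potri.007G043800) rose by 1.61.

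Calls among the 2 main classes of intracellular immune receptors are given side by side. Of 75 TIR-class receptors 23 were higher and 7 lower, whereas of 170 other NB-ARC receptors 14 were higher and 69 lower. The shares were 30.7% and 9.33% for the TIR class and 8.24% and 40.6% for the others. Those of all tested genes were 18.9% and 24.8%. Median log2 fold changes were small, at 0.1 for the TIR class and -0.22 for the others (0.23 and -0.09 in the reduced fit). In the reduced fit the counts were 11 and 2 for the TIR class and 5 and 31 for the others. With 1 library left out, the higher count was 13 without line 7 replicate 4 and 14 without control replicate 1 for the TIR class and 9 without control replicate 1 for the others. The TIR receptor Potri.004G230000 measured 0.187, 0.446, 0.064 and 0.07 TPM in controls and 12.3, 7.76, 13.1 and 12.5 TPM in line 7. The RPM1 homolog Potri.003G099000 rose from 0.056–0.246 to 2.95–4.99 TPM, against the direction of most of its class. Summed levels overlapped between groups for both classes. The difference between the classes was not tested.

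Of 200 leucine-rich repeat receptor kinases 48 were higher (24%) and 78 lower (39%), with 37 and 24 in the reduced fit. The balance turned likewise over all tested genes, from 18.9% higher and 24.8% lower to 12.3% and 7.84% in that fit. The lower count was 43 without control replicate 2, 44 without line 7 replicate 4, 45 without control replicate 1 and 48 without line 7 replicate 3. SOBIR1 (Potri.012G090500), a partner of immune receptor-like proteins, rose from 16.4–35.4 to 197–261 TPM (log2 fold change 3.11). Pathogenesis-related proteins, chitinases and thaumatins were higher in 32 and lower in 16 of 79 cases (23 and 10 in the reduced fit). Their shares were 40.5% and 20.3%, against 18.9% and 24.8% of all tested genes. Chitinase A (Potri.015G024200) measured 4.84, 9.08, 9.93 and 9.47 TPM in controls and 181, 114, 204 and 286 TPM in line 7, a log2 fold change of 4.37 (SE 0.33).

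Glutathione S-transferases, which conjugate glutathione to reactive compounds, had the largest share of genes called higher of any list with at least 3 tested members. Of 58 tested 41 were higher (70.7%) and 5 lower, with a median log2 fold change of 1.26, and 27 were higher in the reduced fit. GSTU7 (Potri.008G174900) measured 2.9, 4.8, 5.21 and 4.91 TPM in controls and 117, 85.7, 257 and 224 TPM in line 7 (log2 fold change 4.86, SE 0.35, adjusted p = 8.6e-06). Summed over 87 genes, line 7 libraries held 6965–7695 TPM, above the 4411–6099 TPM of controls.

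Other enzymes of specialised metabolism were mixed. Of 166 UDP-glycosyltransferases 48 were higher and 35 lower (37 and 11 in the reduced fit), with UGT74D1 (Potri.007G141900) up by 3.57 and UGT88A1 (Potri.015G027700) down by 1.94 on the log2 scale. Of 185 cytochrome P450s 68 were higher and 34 lower (40 and 20 in the reduced fit; lower in 21 without line 7 replicate 4). CYP87A2 (Potri.009G143600) had 2.15–2.71 TPM in controls and was listed at 0 in all line 7 libraries but replicate 4 (0.018 TPM). Of 40 class III peroxidases 15 were higher and 8 lower (13 and 5 in the reduced fit). Shares higher and lower were 28.9% and 21.1% for UDP-glycosyltransferases, 36.8% and 18.4% for cytochrome P450s, and 37.5% and 20% for peroxidases. Those of all tested genes were 18.9% and 24.8%. The apoplastic peroxidase PRXCB (Potri.001G011300) rose from 33.5–68.3 to 342–439 TPM, and Potri.013G066800 was listed at 0 in all 4 line 7 libraries against 1.55–2.35 TPM in controls.

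Of 62 BAHD acyltransferases 20 were higher and 17 lower, of 21 berberine bridge enzymes 6 and 3, and of 21 terpene synthases 3 and 2. The shares were 32.3% and 27.4%, 28.6% and 14.3%, and 14.3% and 9.52%, against 18.9% and 24.8% of all tested genes. In the reduced fit the counts were 10 and 7, 2 and 1, and 2 and 1. The lower count of terpene synthases was 0 without control replicate 2 or 4 or line 7 replicate 3 or 4, 1 without control replicate 3 or line 7 replicate 1 and 8 without line 7 replicate 2. An acyltransferase (Potri.014G025500) rose by 2.31 and a berberine bridge enzyme (Potri.001G459200) by 2.97. The sesquiterpene synthase homolog TPS21 (Potri.015G085500) measured 2.41, 4.06, 44.4 and 15 TPM in line 7 against at most 0.589 TPM in controls. Metallothioneins, small metal-binding proteins, were higher in 5 and lower in 1 of 10 cases, and higher in 1 in the reduced fit, 1 without control replicate 1 or line 7 replicate 3, 2 without control replicate 2 and 3 without line 7 replicate 4. The MT2A homolog Potri.009G030800 measured 3786, 3571, 5550 and 4769 TPM in controls and 10185, 7829, 14506 and 15315 TPM in line 7 (log2 fold change 1.41, not called with no expression filter).

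Of 70 GDSL lipases 26 were lower and 11 higher (16 and 6 in the reduced fit), and of 53 lipid transfer proteins 21 were lower and 3 higher (median -0.91; 12 and 1). The lipid transfer protein Potri.009G158100 fell from 15.1–22.4 to 0.582–3.04 TPM, and GLIP7 (Potri.004G112700), a GDSL lipase, rose from 0.658–1.41 to 7.49–13.9 TPM. Of 26 cuticle genes 7 were lower and 2 higher (6 and 2 in the reduced fit, 5 and 5 with median ratio scaling, and 4 higher without line 7 replicate 3). The lower share was 26.9%, against 24.8% of all tested genes. CER3 (Potri.006G177500), the partner of CER1 in alkane synthesis, rose from 0.103–0.168 to 2.35–10.2 TPM while CER1 fell, KCS19 (Potri.013G119600), which elongates fatty acids, rose by 2.00, and GPAT5 (Potri.010G201200), a suberin acyltransferase, fell by 3.45.

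Of 36 aquaporins 12 were higher and 11 lower (8 and 1 in the reduced fit; lower in 7 without line 7 replicate 4). The plasma membrane aquaporin homologs PIP3 (Potri.009G136600) and PIP2A (Potri.008G039600) moved apart, the first falling to 93.8–246 TPM (605–775 in controls) and the second rising to 1242–1765 TPM (519–677 in controls). Of 31 senescence genes 11 were higher and 5 lower (7 and 2 in the reduced fit), among them SRG3 (Potri.001G325200), which rose by 1.65. Of 16 genes for low oxygen and wounding 6 were higher and 0 lower (3 in the reduced fit, 3 without control replicate 3 or line 7 replicate 2 or 4), among them LBD41 (Potri.004G100100), a hypoxia-responsive factor, which rose from 3.38–6.45 to 13.2–23.5 TPM.

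The 4 line 7 libraries were not alike. Across tested genes, correlations of log2(TPM + 1) were 0.977 between replicates 1 and 2 and 0.974 between replicates 3 and 4, and between 0.896 and 0.943 for the other pairs. Some correlations across the lines were as high, with 0.983 between line 7 replicate 1 and line 2 replicate 3. Line 7 replicate 3 and line 2 replicate 4 had 0.967. Correlations within line 2 ran from 0.916 to 0.972 and within controls from 0.934 to 0.984, so unlike libraries were not particular to line 7. Genes that differed by at least 1 on the log2 scale numbered 882 (3.54%) between replicates 1 and 2, 813 (3.26%) between replicates 3 and 4, and 3837 (15.4%) between replicates 2 and 3. A standard deviation (SD) of at least 1 within the group was found for 1202 genes of line 7 (4.82%), against 527 in the controls (2.11%) and 886 in line 2 (3.55%), although the median SD was lower in line 7 (0.208) than in controls (0.242). Nothing in the labels accounts for this order, and no groups were formed from it.

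The 12 most variable annotated genes of line 7 included PER1, described above, and members of several families. XTH5 (Potri.003G159700) measured 274, 376, 0.737 and 31.7 TPM in line 7 replicates 1 to 4 and 119.7–499 TPM in controls. A potato-type protease inhibitor (Potri.016G079100), which blocks digestive enzymes of herbivores, ran the other way at 0.44, 1.04, 244 and 79.3 TPM. It stood above the controls in all 4 line 7 libraries but did not pass (adjusted p = 0.0748). CYP96A10 (Potri.005G064400) measured 6.04, 3.5, 289.6 and 279 TPM and rose by 4.70 with all controls (adjusted p = 0.015, and 0.108 in the reduced fit).

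Further genes of wide spread had their highest line 7 level in replicate 2. They were a GDSL lipase (Potri.019G024600, 167, 508, 0.039 and 9.72 TPM), a Kunitz-type inhibitor (Potri.019G088200, 16.6, 349, 0.282 and 2.77 TPM), HS1 (Potri.010G151200, 16, 309.6, 0.731 and 1.64 TPM), a glycine-rich protein (Potri.002G252200, 94.4, 326, 0.871 and 9.3 TPM), a second MLP423 homolog (Potri.010G000600, 125, 498, 1.78 and 15.9 TPM) and a cell wall protein precursor (Potri.013G144200, 1847, 2029, 19.5 and 219 TPM). Each was lowest in replicate 3. Of these 6, HS1 and MLP423 were called lower against control with overlap between the groups (adjusted p = 0.0434 and 0.0389) and neither in the reduced fit (adjusted p = 0.128 and 0.258). These calls were lost in 13 and 9 of the settings tried, respectively. A berberine bridge enzyme (Potri.011G158100, 0.496, 0.864, 107 and 42.6 TPM) was high in replicates 3 and 4, and a DUF1278 protein (Potri.006G062100, 1.69, 80.4, 0 and 93.8 TPM) in replicates 2 and 4.

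Abundance in line 7 was led by a metallothionein of the MT3 type (Potri.001G400100), at 29041, 17209, 57814 and 29518 TPM, against 3971, 5982, 23510 and 9647 TPM in controls. Control replicate 3 lay within the line 7 range, and the rise of 1.83 did not pass in the reduced fit (adjusted p = 0.202) and did not pass without control replicate 1, control replicate 2 or line 7 replicate 3 or with no expression filter. A second Rubisco small subunit (Potri.004G100000) measured 6474–12355 TPM in line 7 and 9963–14543 TPM in controls and was not called. One LHCB1.4 homolog (Potri.005G239200) fell from 17383–19806 to 8851–10371 TPM (adjusted p = 0.00641; not called with no expression filter), while the LHCB1.4 homolog named above did not pass (adjusted p = 0.148). A second MT2A homolog (Potri.006G085200) rose by 1.53 to 5841–18496 TPM (adjusted p = 0.0204, and 0.178 in the reduced fit; not called with no expression filter or without control replicate 1 or line 7 replicate 3). The top 10 also held genes without annotation: Potri.001G400200 at 3595–15118 TPM, and Potri.002G055566 at 2637, 3838, 758 and 21672 TPM in line 7 against 0.81–5.2 TPM in controls (log2 fold change 9.99, SE 1.71, adjusted p = 0.00128).

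Set against line 2, the other overexpression line, no gene of line 7 was called by limma (0.0% of 24926 tested). At an unadjusted p under 0.05 there were 418 genes (1.68%), 320 higher and 98 lower in line 7, and the smallest adjusted p was 0.661. A difference of at least 1 on the log2 scale was seen for 100 genes (0.401%), and the median difference of all genes was 0.0721. A p that misses the threshold does not show that the lines are alike. Both lines were compared with the same 4 controls, so their changes against control share those values and are given only side by side. The ZFP11 homolog changed by 10.40 in line 7 and 10.44 in line 2, POK2 by -1.09 and -1.19, GIS by -2.35 and -3.60, and LAC11 by -3.14 and -3.45.

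**Figure D5:**
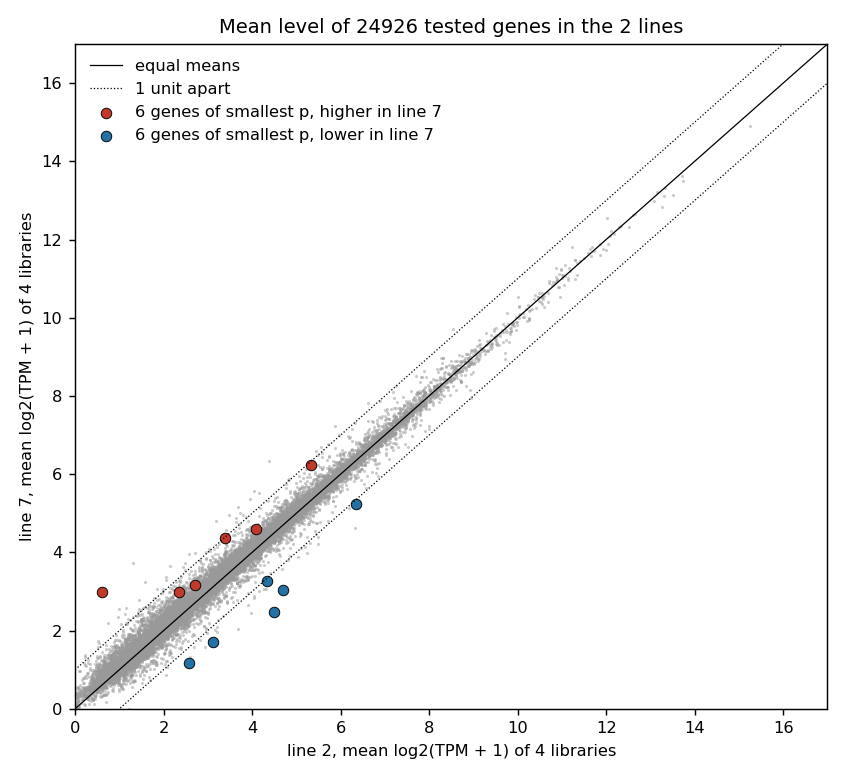
Mean log2(TPM + 1) of each of the 24926 tested genes in line 7 (vertical axis) and line 2 (horizontal axis), 4 libraries each, with the line of equal means, dotted lines 1 unit apart from it, and the 12 genes of smallest p marked. Only 100 genes lie beyond the dotted lines, and the myb-like gene with a difference of 2.38 is the farthest of the marked genes.

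The genes of smallest p between the lines are given as values, since none passed the adjusted threshold. A myb-like transcription factor (Potri.016G048000) measured 6.07, 16.4, 5.64 and 3.77 TPM in line 7 and 0.147, 0.24, 1.66 and 0.416 TPM in line 2, against 3.92–8.2 TPM in controls. Line 7 thus overlapped the controls and line 2 lay below both (difference 2.38, SE 0.39, unadjusted p = 6.97e-05). A pair of homologs of YSL3, a transporter of metal chelates, overlapped the controls in line 7 as well. Potri.012G024700 measured 48.9–88.8 TPM in line 7 and 31.4–46.8 TPM in line 2, and Potri.012G027800 measured 12.4–22.8 and 7.94–12.6 TPM, with differences of 0.89 and 0.97. A P-loop protein (Potri.008G162000), GATA16 (Potri.014G124400) and the trihelix factor GT2 (Potri.001G309100) fell against control in both lines and were higher in line 7 than in line 2 by 0.64, 0.52 and 0.45.

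In the other direction, the plastid superoxide dismutase CSD2 (Potri.004G216700) measured 6.67, 5.34, 7.51 and 10.2 TPM in line 7 and 43.6, 26.2, 15.3 and 21.4 TPM in line 2, against 52.7, 35.5, 19.9 and 11.4 TPM in controls. The difference between the lines was -1.64 (SE 0.42, unadjusted p = 0.00234), and the fall of line 7 against control did not pass in the reduced fit (adjusted p = 0.105). The cupredoxins Potri.002G101300 and Potri.002G101200, which like CSD2 bind copper, had log2 differences of -2.01 and -1.42 (line 7 minus line 2). A glutamate receptor homolog, GLR2.7 (Potri.004G052500), rose against control in both lines and stood at 1.47–3.06 TPM in line 7 against 4.83–14 TPM in line 2. CYP71B37 (Potri.012G090000) and CYP71A25 (Potri.012G089900) did likewise, with line 7 lower than line 2 by 1.12 and 1.07 on the log2 scale.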

How the data were processed

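The authors deposited 1 table of TPM values for 34749 poplar genes in 12 leaf libraries, made from oligo(dT)-primed SMARTer cDNA, per the labels' protocols. Per the submitters' processing notes, cutadapt, FastQC and Salmon were used, and their versions are not stated. The genome build is not given in the sources used here. TPM sums to a fixed total in each library, so depth and counting error are unknown.

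Values were analysed as log2(TPM + 1) for the 24926 genes with at least 1 TPM in at least 4 of the 12 libraries. Means of the 3 groups were fitted together with limma 3.58.1 in R 4.3.3, with an intensity trend and Benjamini-Hochberg adjustment over all tested genes (threshold 0.05). Exact two-sided permutation tests over the 70 regroupings of 4 against 4 libraries used SciPy 1.17.1 and Python 3.11.15. The fitting steps were tested on simulated data. The table pairs 31436 genes with an Arabidopsis locus, 13350 with a name and 28370 with a description, and 58 gene lists were drawn from these. Samples were grouped by their labels, and same-numbered samples were not treated as pairs.

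The members and lists were chosen with earlier results of these data known, and list definitions were trimmed after seeing which descriptions they matched. Genes named were the SUPERMAN and POK homologs, the 12 largest called rises and falls at a mean of at least 5 TPM, members of each list among its 4 of smallest p, the 6 genes each way of smallest p between the lines, the 12 most variable and the 10 most abundant in line 7. Alternatives were pseudocounts of 0.1 and 5, no filter, a mean of at least 5 TPM, median ratio scaling, a replicate block, a fit of 2 groups, no trend, library weights, an adjusted p of 0.01, a log2 fold change of 1, each library left out, and control replicates 1 and 2 left out together.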

Additional observations from a re-analysis of the deposited data

Results flagged for a closer look

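Within each group of 4 libraries, a value was singled out when its gap to the nearest other value took up a larger part of the group's whole range than Dixon's critical value for 4 samples allows. Of 442 groups looked at, over 163 genes and 58 lists in control and line 7, 27 met this (6.11%). Chance flags about 1 in 20 groups where values follow a normal distribution. That rate may not hold here, since a group with only 1 library above 0 is always flagged and some genes were chosen for their spread.

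In line 7, replicate 2 stood apart most often. It was the high library for the acyltransferase Potri.010G208100 (12.49 TPM, others at most 0.063), for BXL1 (Potri.008G108100, 2.605 TPM, others at most 0.313), for PGP9 (Potri.001G354900, 1.694 TPM, others at most 0.425), for LAC11 (Potri.007G023300, 2.219 TPM, others at most 0.503) and for EXPA5 (Potri.017G085300, 1.707 TPM, others at most 0.155). It was the low library for the TIR receptor Potri.004G230000 (7.763 TPM, others at least 12.34) and LBD41 (Potri.004G100100, 13.24 TPM, others at least 21.54). Replicate 4 was low for YSL3 (Potri.012G027800, 12.39 TPM, others at least 22.76) and was the only line 7 library in which CYP87A2 (Potri.009G143600) was not listed at 0 (0.018 TPM). Replicate 1 was low for GPAT5 (Potri.010G201200, 0.15 TPM, others at least 1.461).

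In the controls, 1 library alone was above 0 for ZFP11 (Potri.002G041700, replicate 4, 0.112 TPM), both CYP712A1 homologs (Potri.006G057900 and Potri.006G058000, replicate 3, 0.034 TPM each), PER1 (Potri.008G099900, replicate 3, 0.08 TPM), RCI3 (Potri.015G003500, replicate 3, 0.09 TPM) and EDF3 (Potri.T036200, replicate 2, 0.196 TPM). Replicate 1 was the low library for the RING protein Potri.012G003900 (0 TPM, others at least 1.088), RPM1 (Potri.003G099000, 0.056 TPM, others at least 0.224), chitinase A (Potri.015G024200, 4.844 TPM, others at least 9.076), GSTU7 (Potri.008G174900, 2.895 TPM, others at least 4.797) and PIP2A (Potri.008G039600, 519.0 TPM, others at least 658.8). It was also low for the summed senescence genes (624.4 TPM, others at least 769.5) and the summed low oxygen and wounding genes (299.4 TPM, others at least 461.9), and high for KNAT7 (Potri.001G112200, 21.7 TPM, others at most 18.02). Replicate 2 was high for CYP87A2 (2.711 TPM, others at most 2.196) and PIP3 (Potri.009G136600, 774.7 TPM, others at most 611.1), and replicate 3 was low for chalcone isomerase (Potri.010G213000, 46.86 TPM, others at least 60.94).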

How the results depend on the processing

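The number of genes called in line 7 against control, 10910, fell by over 1.5 times with a mean of at least 5 TPM (7087 called, 3648 of them lower), where fewer genes were tested, and under the stricter limits of an adjusted p of 0.01 (5410, with 2598 higher and 2812 lower) and a log2 fold change of 1 (4345, with 2152 higher and 2193 lower). Without control replicates 1 and 2 it was 5013 (3058 higher and 1955 lower), with 2 fewer libraries. With each library left out in turn the count lay between 7929 and 11316, and the count of lower genes between 4030 without control replicate 2 and 6715 without control replicate 3, with 4115 without control replicate 1. Pseudocounts of 0.1 and 5, no filter, the fit of 2 groups and library weights gave 10872, 10720, 11929, 10366 and 13018.

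Median ratio scaling called 11567. The replicate block called 10763 (4656 higher and 6107 lower), and the deviations of same-numbered samples from their group means had correlations of 0.236, 0.332, 0.302 and 0.0222 for numbers 1 to 4. The first 3 are over 0.1 and the last is not, and the labels give no shared source for a number, so the numbers were not used as pairs. Of the settings tried for counts over the lists, 359 moved by over 1.5 times and 2149 did not. Of those tried for named genes against control, 3429 kept their side of the threshold, 69 lost it and 23 gained it, and none changed sign after a call. No gene passed between line 7 and line 2 in any setting. Calls were lost in 13 settings for HS1 (Potri.010G151200), 9 for the MLP423 homolog Potri.010G000600, 8 for LHY, 6 for PER1 and 5 for MT3. TPM holds no depth, so precision rests on 4 libraries per group.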

Other observations

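The values below belong to further members of the lists, all of them called in line 7 against control with limma. A pair of SAG101 homologs, which act with EDS1 in immunity and are also listed with senescence, rose, Potri.T004600 from 0–0.537 to 1.91–4.24 TPM and Potri.T004800 from 0–0.518 to 1.77–3.73 TPM. Pyruvate decarboxylase, the entry to ethanolic fermentation, rose in Potri.016G120100, from 25–36.1 to 57.3–107 TPM. Starch synthase SS4 (Potri.018G149500), which starts starch granules, went from 5.8–11.2 to 2.93–4.09 TPM. The gibberellin-regulated genes Potri.019G083900 and Potri.001G254100 went from 41.5–73 to 0.514–13.5 TPM and from 559.8–715 to 26.6–341 TPM. Their changes were -3.24 and -2.34 with all controls and -3.34 and -2.41 in the reduced fit, there without a call (adjusted p = 0.0527 and 0.0808). YAB5 (Potri.018G129800), a YABBY factor like FIL, fell by 2.05 on the log2 scale, to 3.7–15.4 TPM.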
